A study of Mus musculus with 6 samples.

Results

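The genes described here are the 6 alpha and beta tubulin genes with a row in the expression table of virus-specific CD8+ T cells, namely the alpha tubulin genes Tuba1a, Tuba1b, Tuba1c and Tuba4a and the beta tubulin genes Tubb4b and Tubb5. They were chosen by their symbols, and they are 6 of the 1018 genes of that table. Bulk RNA sequencing was performed at day 7 of infection with murine cytomegalovirus (MCMV), on spleen CD8+ T cells sorted with a tetramer of MHC and the viral M45 peptide. The cells came from 3 B-cell-deficient JHT mice and 3 WT mice, and each library came from 1 mouse. In JHT mice the heavy chain J segments are deleted from the germline, so that no B cells form. All mice were adults of both sexes on the C57BL/6J background, the WT controls were littermates, and both groups were infected with MCMV. The comparison asked how virus-specific CD8+ T cells primed without B cells differ in expression from those primed with them.

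Alpha and beta tubulin pair into the heterodimer that polymerises into microtubules, the hollow filaments that build the mitotic spindle, carry vesicles and organelles and, in cytotoxic T cells, bring lytic granules to the immune synapse. A mammalian genome holds several genes for each class, and their products mix within 1 polymer. Dividing T cells depend on a large tubulin pool for the spindle. Cells also keep the pool in check through autoregulation: when free tubulin dimers are in excess, the factor TTC5 binds the first residues of a tubulin chain as it leaves the ribosome and the mRNA being translated is degraded.

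The table limits what can be read from a difference between the groups. By the comparison columns deposited beside the values, all 1018 genes had an unadjusted p under 0.05 and a difference of at least 2-fold between these same libraries, and 0 of the 1018 had an FDR-corrected p under 0.05. Tubulin genes outside the table were not analysed here. Of the 1018 genes, 983 were higher in JHT and 35 were lower. By the same test as used for the tubulins, 96.6% of all genes in the table were called higher in JHT, and in 96.6% every JHT value lay above every WT value. That share is the background for each count given below, and the p-values are conditional on that choice of genes. Values are expression signals per gene length as deposited, so that levels of different genes can be set side by side. Whole reads could be recovered from the values of 1017 of the 1018 genes, and these summed to between 3702143 and 5358363 reads in the JHT libraries, against 1100363 reads in WT-1 and 2008926 and 2008143 in the other WT libraries. These are reads in the listed genes, nearly all of them higher in JHT, and not library totals. Reads per unit of value, relative to WT-1, were 1.11, 1.43 and 1.10 in the JHT libraries. They were 1.15 in WT-2 and 1.21 in WT-3. The labelled cell type could be checked only in part. Of 8 CD8 T cell markers only Lck had a row, at 554, 659.7 and 768 in JHT cells, against 184, 381 and 299 in WT cells. None of 8 B cell, 8 myeloid, 4 NK cell and 6 dendritic cell markers had a row, and of 8 erythroid markers only Bpgm did, at 13.9, 13.1 and 10.2 in JHT cells, against 1.65, 6.14 and 4.45 in WT cells. Since the table holds only genes that met both thresholds above, a missing row does not show that a marker was not expressed. The missing rows therefore give no check of purity. Whether cells of another type had a part in the differences was not tested.

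The beginnings of 3 coding sequences, those of Tuba4a, Tubb4b and Tubb5, are shown because they carry the stretch that autoregulation reads. Each line gives the first 60 coding bases in the GENCODE M21 annotation of GRCm38, from 5′ to 3′, with the first 4 codons (12 bases) in capitals.
Tuba4a: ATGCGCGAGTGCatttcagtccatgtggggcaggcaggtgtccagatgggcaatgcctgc
Tubb4b: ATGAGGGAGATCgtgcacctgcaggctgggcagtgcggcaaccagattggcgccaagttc
Tubb5: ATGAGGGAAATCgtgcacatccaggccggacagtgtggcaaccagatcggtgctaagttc
Tuba4a differed from Tubb4b at 28 and from Tubb5 at 29 of these 60 bases. Tubb4b and Tubb5 differed from each other at 9 of the 60 bases and at 1 of the first 12. Over the whole coding sequence, identity was 98.3% between Tuba1a and Tuba1b, 97.1% between Tuba1a and Tuba1c and 97.9% between Tuba1b and Tuba1c. Tuba4a was 84.8% to 85.3% identical to those 3 genes, and Tubb4b was 82.3% identical to Tubb5. Any alpha tubulin was 56.4% to 57.6% identical to any beta tubulin.

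This closeness bears on how far reads can be told apart. Of the stretches of 150 bases in the Tuba1b transcript, 57.9% also occurred, without a mismatch, in a transcript of another annotated gene, most often Tuba1c. The share was 54.7% for Tuba1a and 46.7% for Tuba1c. It was 45.7% for Tuba4a, all of it with Stk16, a gene on the opposite strand that overlaps Tuba4a by 1379 bases. For Tubb4b it was 16.8%, with a Tubb4b pseudogene, and for Tubb5 it was 0%. Values of Tuba1a, Tuba1b and Tuba1c are therefore uncertain as single genes, because the counting could divide shared reads among them, and the library kit does not mark strand. The Tubb5 value carries no such overlap at this read length.

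On GRCm38, Tuba1b (chromosome 15, 98931425 to 98934565, minus strand), Tuba1a (chromosome 15, 98949837 to 98953703, minus strand) and Tuba1c (chromosome 15, 99029891 to 99038110, plus strand) lie next to each other, with 15271 bases between Tuba1b and Tuba1a and 76187 bases between Tuba1a and Tuba1c. The predicted gene Gm49450, on the same strand, covers 3715 bases of Tuba1a and 2429 bases of Tuba1b and had no row in the table. The other genes lie apart from these and from each other, with Tuba4a on chromosome 1 (75214228 to 75219865, minus strand), Tubb4b on chromosome 2 (25222160 to 25224702, minus strand) and Tubb5 on chromosome 17 (35833921 to 35838306, minus strand). Tubb4b is overlapped by Fam166a, on the opposite strand, over 121 bases, which hold 7.57% of its exon bases, and Fam166a had no row in the table. Each of the 6 has 4 exons in the transcript used here, with coding lengths between 1332 and 1353 bases.

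All 6 tubulin genes were higher in JHT than in WT CD8+ T cells in the values as deposited, by 2.15-fold (Tubb5) to 3.66-fold (Tuba4a) between the group means, whereas Tuba1c and Tubb5 turned lower once the libraries were set to an equal median or quantile-normalized. No value of a member overlapped between the groups as deposited, which was also true of every gene higher in JHT in the table. The median fold of the 6 members was 2.91, against 2.93 for the 983 genes higher in JHT, so that the tubulins as a group sat at the middle of the table. None was among its largest differences, since their folds ranked from 249 (Tuba4a) to 884 (Tubb5) among the 1018 genes. Cells were sorted in equal number from each group, and from bulk RNA a change in every cell cannot be told apart from a change in the share of cells that express a gene strongly.

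**Figure D1:**
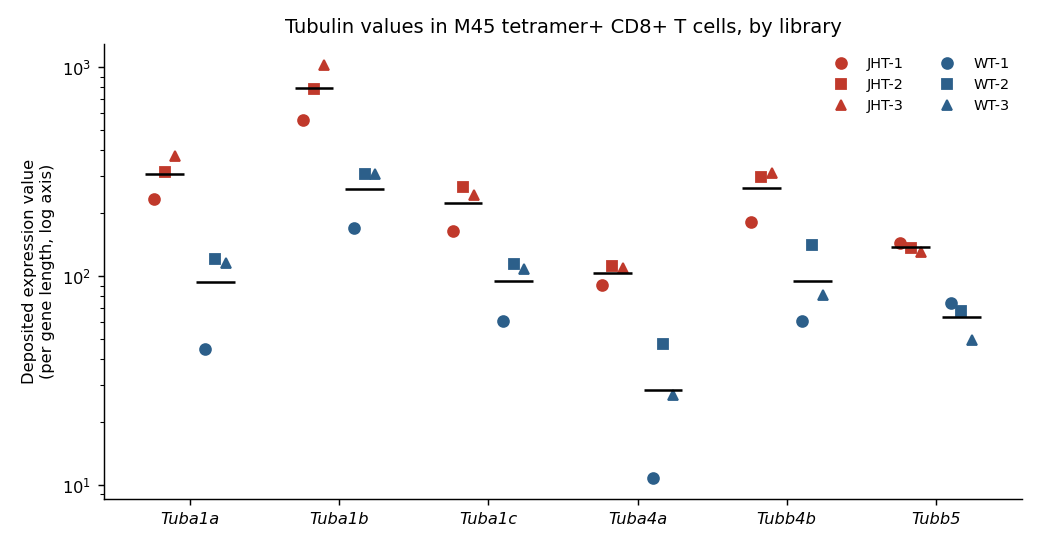
Deposited expression value (per gene length, log axis) of the 6 tubulin genes in each library, with JHT in red left of WT in blue, replicates by symbol and group means as bars. The 3 JHT values lie above the 3 WT values for every gene as deposited (Tuba1c and Tubb5 turn lower in JHT at an equal library median), and WT-1 is the lowest library for every gene but Tubb5.

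Tuba1b, the most abundant alpha tubulin of most dividing cells, had the highest level of the 6 genes in every library. Its value per gene length was 558, 788 and 1028 in the JHT libraries, against 169.8, 307.5 and 308.3 in the WT libraries. WT-1 stood below the other WT libraries, and the lowest JHT value was 1.81 times the highest WT value. The means were 791 ± 235 in JHT and 262 ± 79.7 in WT (SD, n = 3 each), and the log2 change was 1.60 ± 0.35 (SE; limma, Benjamini-Hochberg adjusted p = 2.36e-05 over the whole table). The values rest on 24200, 44099 and 44076 recovered reads in JHT and 6624, 13736 and 14598 in WT, so that counting error is small beside the spread between mice. By its mean level Tuba1b ranked 20 among the 1018 genes.

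Tuba1a, the alpha tubulin best known from developing neurons, had values of 235, 316 and 377 in JHT cells, against 44.6, 120.1 and 115.8 in WT cells. The groups did not overlap, and WT-1 lay far below WT-2 and WT-3, whose mean was 2.64 times the WT-1 value. The group means differed 3.31-fold, with a log2 change of 1.82 ± 0.38 (SE; limma adjusted p = 1.08e-05), and the fold was 2.62 without WT-1. Tuba1c, which lies beside them on chromosome 15, had values of 164, 267 and 243 in JHT cells, against 60.8, 115 and 108 in WT cells. Its means differed 2.38-fold, with a log2 change of 1.27 ± 0.38 (SE; limma adjusted p = 0.00138), the smallest log2 change among the 4 alpha tubulins. The lowest JHT value of Tuba1c was 1.43 times the highest WT value, compared with 1.95 times for Tuba1a.

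Tuba4a, an alpha tubulin whose gene, unlike the others, does not encode the C-terminal tyrosine, had the lowest level of the 6 genes in every library. The JHT libraries lay close together, at 90.6, 112 and 109, whereas the WT libraries held 10.8, 47.5 and 26.8. The highest WT value was 4.41 times the lowest, the widest ratio within a group among the 6 genes, and the highest JHT value was 1.23 times the lowest. The log2 change of 2.06 ± 0.40 (SE; limma adjusted p = 2.2e-06) was the largest of the 6, at 3.66-fold between the means of 104 ± 11.5 in JHT and 28.3 ± 18.4 in WT (SD, n = 3 each). The size of this difference depended on which WT mouse was counted: the fold was 2.80 without WT-1 and 5.53 without WT-2. Reads from Stk16 could also enter the Tuba4a value, since 48.6% of its exon bases overlap that gene, which had no row in the table.

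Tubb4b, a beta tubulin that is also a main component of ciliary axonemes, had values of 182, 297 and 311 in JHT cells, against 60.8, 141 and 81.0 in WT cells. WT-2 was the highest WT library here, and the lowest JHT value was only 1.29 times as high, the narrowest gap of the 6 genes. The means differed 2.80-fold, with a log2 change of 1.52 ± 0.38 (SE; limma adjusted p = 0.000162), and the fold was 3.72 without WT-2. Tubb5, a broadly expressed beta tubulin that is abundant in the developing brain, had values of 144, 136 and 131 in JHT cells, against 74.2, 67.6 and 49.2 in WT cells. It varied least between mice in both groups, with a coefficient of variation of 4.87% in JHT and 20.3% in WT. Its difference was the smallest of the 6, at 2.15-fold, with a log2 change of 1.11 ± 0.39 (SE; limma adjusted p = 0.00508). An exact two-sided permutation test over libraries gave p = 0.1 for each of the 6 genes, the smallest p that 3 against 3 libraries allow. Any gene without overlap between the groups has this p.

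In JHT cells the order of the mean levels was Tuba1b, Tuba1a (309 ± 71.5), Tubb4b (264 ± 70.8), Tuba1c (225 ± 54.2), Tubb5 (137 ± 6.67) and Tuba4a (SD, n = 3 each). Tuba1a lay within 1 SD of Tubb4b, and Tubb4b within 1 SD of Tuba1c. In WT cells Tuba1c (94.4 ± 29.3), Tubb4b (94.3 ± 41.7) and Tuba1a (93.5 ± 42.4) could not be ordered within their spread, below Tuba1b. Tubb5 (63.7 ± 12.9) was lower still, by more than 1 SD of either gene against Tuba1c and by less than 1 SD of Tubb4b or Tuba1a against those genes. Tubb5 changed its place in 1 library: it was second highest in WT-1 and second lowest in the other 5 libraries.

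WT-1 set Tubb5 apart from the other members. For Tuba1a, Tuba1b, Tuba1c, Tuba4a and Tubb4b the mean of WT-2 and WT-3 was 1.81 to 3.45 times the WT-1 value. For Tubb5 it was 0.788 times, so that WT-1 held the most Tubb5 of the WT libraries and the least of every other tubulin. Across the genes of the table that were higher in JHT, the median log2 ratio of WT-1 to the mean of WT-2 and WT-3 was -0.55, so the low values of WT-1 were shared by most of the table and Tubb5 departed from them. In JHT cells likewise, JHT-1 was the lowest library for those 5 genes and the highest for Tubb5. Without WT-1, the folds narrowed to between 2.02 (Tuba1c) and 2.80 (Tuba4a) for the 5 genes, while that of Tubb5 was 2.34.

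Summed over the members of a class, alpha tubulin held 1047, 1483 and 1757 in JHT cells, against 286, 589.6 and 559 in WT cells. Beta tubulin held 326, 433 and 442 in JHT cells, against 135, 209 and 130.2 in WT cells. Neither sum overlapped between the groups, which follows from the lack of overlap of each member. The means differed 2.99-fold for alpha tubulin and 2.54-fold for beta tubulin. All 6 genes together held 1374, 1917 and 2199 in JHT cells, against 421, 798 and 689 in WT cells, a 2.88-fold difference of the means. The exact two-sided permutation p was 0.1 for each sum, again the smallest possible, and it was fixed by that lack of overlap. At an equal library median the log2 difference of summed beta tubulin was -0.088, that of summed alpha tubulin was 0.17 and that of all 6 genes together was 0.10. The ratio of the alpha sum to the beta sum was 3.21, 3.42 and 3.98 in JHT cells, against 2.12, 2.83 and 4.29 in WT cells. These ranges overlapped (exact two-sided permutation p = 0.5). Other alpha and beta tubulin genes have no row and are not in these sums.

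**Figure D2:**
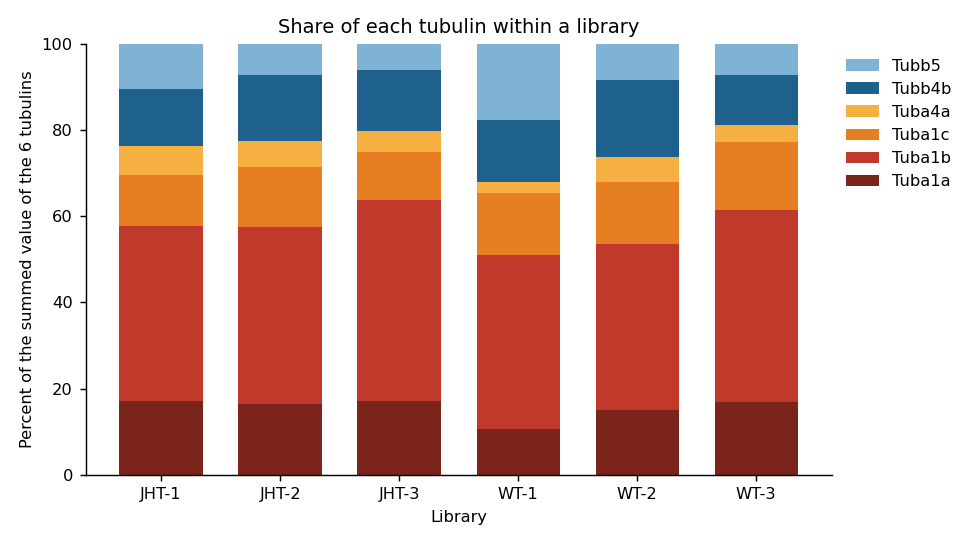
Percent of the summed value of the 6 tubulins taken by each gene (stacked bars reaching 100), in the 3 JHT and then the 3 WT libraries. Tuba1b takes 40.6% to 46.7% in JHT and 38.5% to 44.7% in WT libraries, and Tubb5 takes 17.6% in WT-1, above its share in every other library.

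The share of each gene in the summed tubulin value of its own library does not depend on how libraries were scaled to each other. Tuba1b took 42.8% ± 3.39 of the sum in JHT cells and 41.2% ± 3.20 in WT cells (SD, n = 3 each), a difference of 1.63 percentage points with overlapping groups (exact permutation p = 0.5). Tuba1c had the only share that did not overlap between the groups, at 11.9%, 14.0% and 11.1% in JHT cells, against 14.4%, 14.4% and 15.7% in WT cells. Its share was lower in JHT by a mean of 2.51 percentage points, with an exact two-sided permutation p of 0.1 and an adjusted p of 0.583 over the 7 shares compared. When recovered reads took the place of per-length values, the Tuba1c shares overlapped (exact permutation p = 0.2).

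Tuba1a took 16.9% ± 0.367 in JHT cells and 14.1% ± 3.20 in WT cells, with WT-1 low at 10.6% (exact permutation p = 0.2, n = 3 each). Tuba4a took 5.80% ± 0.817 in JHT cells and 4.13% ± 1.71 in WT cells (exact permutation p = 0.3, n = 3 each). Tubb4b took 14.3% ± 1.14 in JHT cells and 14.6% ± 2.96 in WT cells (exact permutation p = 0.9, n = 3 each). The Tubb5 share was 10.5%, 7.09% and 5.95% in JHT cells, against 17.6%, 8.47% and 7.15% in WT cells. These overlapped, and the mean difference of -3.24 percentage points rested on WT-1, since it was 0.035 without that library. The alpha class as a whole took 77.8% ± 1.87 in JHT cells and 74.3% ± 6.60 in WT cells (exact permutation p = 0.5, n = 3 each). No share passed the adjustment over the 7, whose values were 0.583 or above, and 3 against 3 libraries could not have passed it.

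The scaling between libraries decided the call for every member. Setting the median of all genes of the table equal in every library removed a shift of 1.44 on the log2 scale. Relative to that shift, the log2 change was 0.62 ± 0.29 for Tuba4a, 0.38 ± 0.25 for Tuba1a, 0.16 ± 0.23 for Tuba1b and 0.083 ± 0.24 for Tubb4b (SE). It was -0.17 ± 0.23 for Tuba1c and -0.33 ± 0.26 for Tubb5. None of the 6 passed limma's test at this scaling, with adjusted p between 0.425 and 0.917, where 2.06% of all genes in the table were called higher in JHT and 5.5% were called in either direction. The sign was positive for 4 of the 6, against 53.3% of all genes. Quantile normalization gave log2 changes of 0.67 for Tuba4a, 0.51 for Tuba1a, 0.31 for Tuba1b, 0.22 for Tubb4b, -0.056 for Tuba1c and -0.28 for Tubb5. No member was called, where 2.55% of all genes were called higher in JHT and 5.89% in either direction, and 53.4% had a positive sign. The order of the 6 was the same as with the deposited values. Because the table holds almost only genes that were higher in JHT, whether the shared shift lies in the cells or in the libraries cannot be told apart here.

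**Figure D3:**
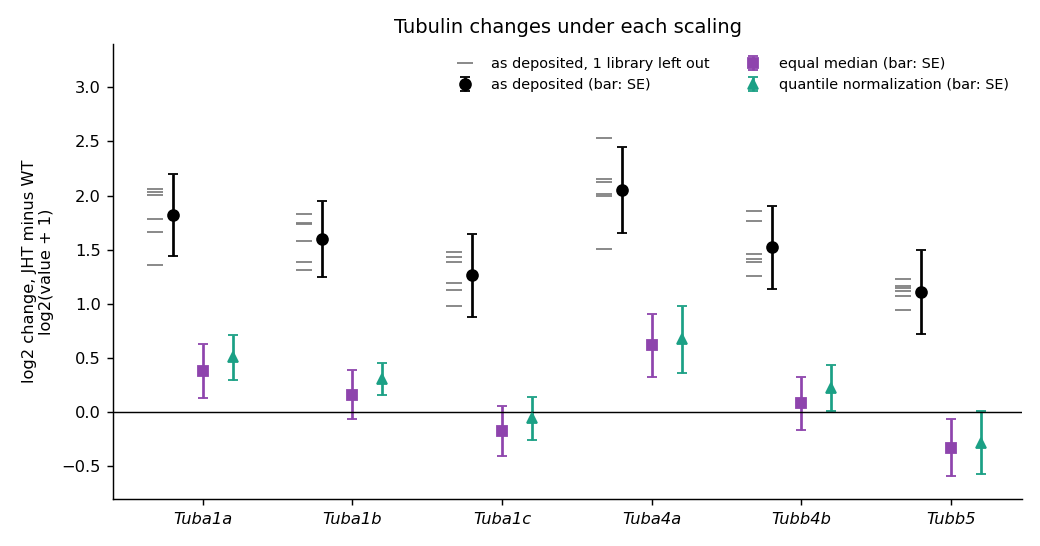
Log2 change, JHT minus WT, on log2(value + 1) for each tubulin gene as deposited (black, with the fits that leave out 1 library as grey ticks), at an equal library median (purple) and after quantile normalization (green), with SE bars. All 6 lie between 1.11 and 2.06 as deposited, and Tuba1c and Tubb5 are below 0 under both other scalings.

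Other genes of the microtubule system were taken from lists of its parts. Of 12 other tubulin genes only Tubd1, the delta tubulin of centrioles, had a row, at 2.16-fold, and it turned lower in JHT at an equal median and after quantile normalization. Of 23 genes that fold tubulin or tend its dimers, 7 had a row and all 7 were higher in JHT, with a median fold of 3.14, against 2.89 for all genes of the table. These were the CCT chaperonin subunits Tcp1 (2.87-fold), Cct3 (3.09-fold), Cct5 (3.14-fold), Cct7 (3.60-fold) and Cct8 (3.00-fold), the tubulin cofactor Tbcc (3.28-fold) and Ttc5 (5.18-fold). The CCT chaperonin folds newly made actin and tubulin. All 7 of these genes kept a positive log2 change at an equal median and after quantile normalization. Of all genes in the table, 53.3% and 53.4% did so. None of the 7 passed the test at either scaling.

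Ttc5, the factor that reads the tubulin stretch shown in capitals above, had values of 12.6, 19.1 and 23.9 in JHT cells, against 2.07, 4.96 and 3.71 in WT cells. The groups did not overlap as deposited, with a log2 change of 2.10 ± 0.40 (SE; limma adjusted p = 1.32e-06). At an equal median the Ttc5 log2 change was 0.66 (limma adjusted p = 0.551). Its call, like those of the 6 tubulins, was lost at that scaling, where 2.06% of all genes were called higher in JHT.

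Of 19 genes of the gamma-tubulin ring complex and its augmin recruiters, 5 had a row, all higher in JHT as deposited, with a median fold of 3.45. Haus2, Haus4, Haus5 and Haus8, subunits of augmin, which branches microtubules in the spindle, differed by 2.34-, 3.02-, 4.85- and 3.45-fold, of which Haus2 turned lower at an equal median and Haus2 and Haus5 after quantile normalization. A positive log2 change was kept by 53.3% and 53.4% of all genes in the table at those scalings. Tubg1, the gamma tubulin that nucleates microtubules, had values of 26.8, 39.8 and 39.4 in JHT cells, against 3.63, 4.86 and 8.04 in WT cells, which is 6.41-fold between the means. It was the only microtubule gene of these lists called under all 3 scalings. Its log2 change was 1.08 at an equal median (limma adjusted p = 0.0393) and 1.09 after quantile normalization (limma adjusted p = 0.0379). Of all genes in the table, 2.06% and 2.55% were called higher in JHT at those scalings.

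Of 26 genes for microtubule growth, stability and severing, 7 had a row, all higher in JHT as deposited, with a median fold of 2.57. Stmn1, which binds free tubulin dimers and favours depolymerisation, had the highest level of this list, at 2526, 2885 and 2105 in JHT cells, against 1046, 1335 and 1308 in WT cells. Its means differed 2.04-fold. Tacc3, a spindle protein that acts with the microtubule polymerase Ckap5, had the largest difference of this list at 5.51-fold, against 2.52-fold for Ckap5 itself. At an equal median 6 of the 7 turned lower in JHT, all but Tacc3, and 5 of the 7 did so after quantile normalization. These signs are relative to the other genes of the table, of which 53.3% and 53.4% had a positive log2 change at the same scalings. None of the 7 passed the test at either scaling. Of 37 kinesin, dynein and dynactin genes, 4 had a row. These were the chromosome kinesin Kif22 (4.89-fold), the dynein chains Dync1li1 (4.69-fold) and Dynlt1b (2.61-fold) and the dynein regulator Nde1 (2.77-fold), of which Dynlt1b and Nde1 turned lower at an equal median. Of 15 genes that modify tubulin only Sirt2, a tubulin deacetylase, had a row, at 2.19-fold, and it too turned lower at an equal median.

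A list of actin genes was taken for comparison. Of 26 genes, 7 had a row and all were higher in JHT as deposited, with a median fold of 2.76. The tubulins' median was 2.91 and that of all genes of the table was 2.89, so both sets lay near the middle of the table. At an equal median 2 of the 7 turned lower in JHT, Pfn1 (log2 change -0.33), which encodes the actin monomer binder profilin, and Arpc5 (-0.18), a subunit of the ARP2/3 complex. A positive log2 change was found for 53.3% of all genes in the table there. Actg1, the cytoplasmic gamma actin, had values of 1297, 1347 and 1792 in JHT cells, against 350.2, 646 and 546 in WT cells, a 2.88-fold difference. Of the 7 only Actg1 passed the test after quantile normalization, with a log2 change of 0.50 (limma adjusted p = 0.00061). At that scaling 2.55% of all genes were called higher in JHT. Actg1 did not pass at an equal median, where its log2 change was 0.11.

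**Figure D4:**
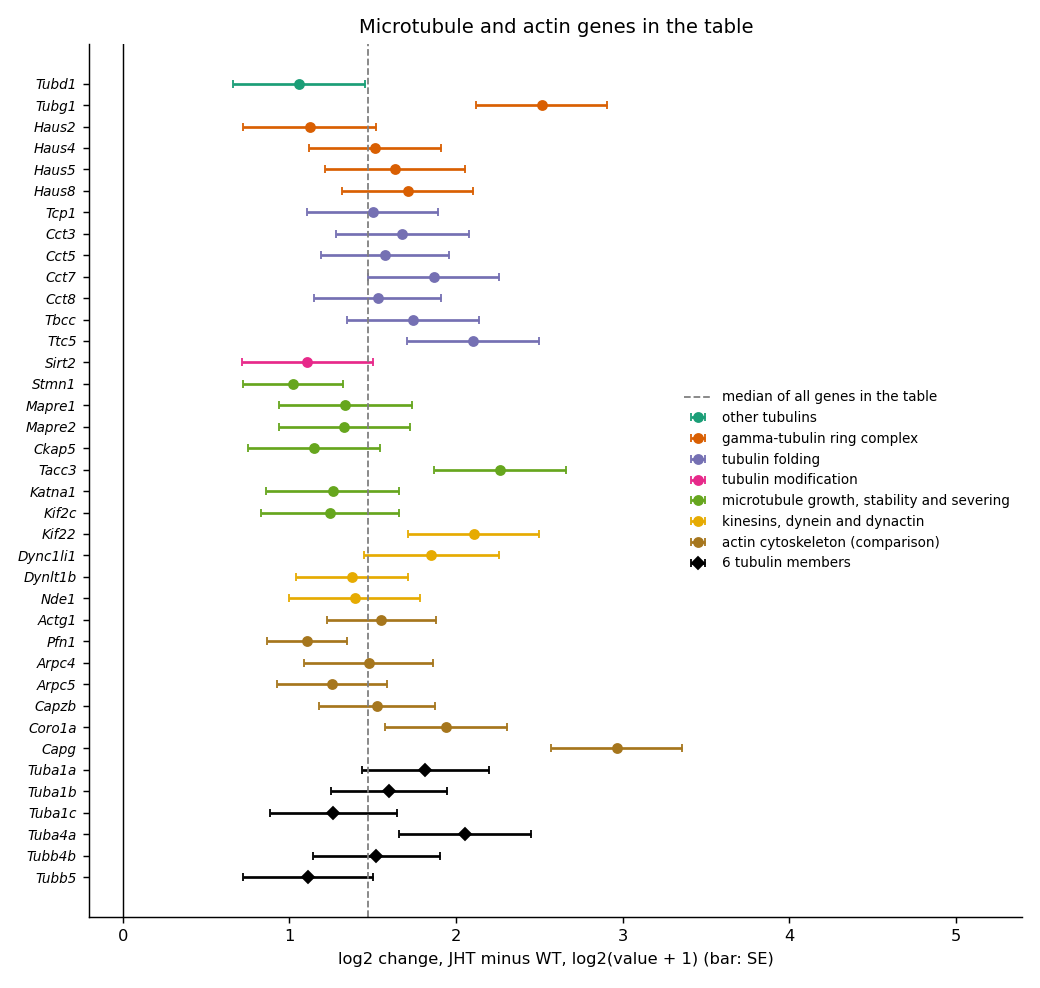
Log2 change, JHT minus WT, on log2(value + 1) as deposited, with SE bars, for the listed microtubule and actin genes (colored by list) and the 6 tubulins (black diamonds). The dashed line is the median of all genes of the table, 1.47, and the tubulins lie on both sides of it, while at an equal library median Tuba1c and Tubb5 turn lower in JHT.

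The genes whose pattern over the 6 libraries was most like the mean log2(value + 1) of the members were Bag1, a cochaperone of HSP70 (Pearson r = 0.999), Anxa2, a membrane-binding annexin (r = 0.998), Ifrd1 (r = 0.998), the glycolytic enzyme Eno1 (r = 0.998) and Snrnp40, a part of the U5 spliceosome (r = 0.997). These r are descriptions over 6 points that share the group difference for which the whole table was chosen, and no test was made of them. Bag1, the closest, had values of 165, 222 and 214 in JHT cells, against 46.8, 98.4 and 74.7 in WT cells. The group means of the 5 genes differed 2.59- to 4.46-fold.

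The letters upstream of the start sites were compared by counting exact matches on both strands in the 250 bases before each RefSeq start of GRCm38.p6. These starts differ from the gene coordinates given above for some members. The Tuba4a window (75219295 to 75219544) lies wholly inside those coordinates. The windows of Tuba1a (98953502 to 98953751), Tuba1b (98934391 to 98934640) and Tubb5 (35838302 to 35838551) lie in part inside them. The CCAAT box, bound by the factor NF-Y, matched in 33.8% of 32851 promoters, and among the 6 members it matched once in Tuba1a and in Tuba1c, 2 times in Tubb5 and 5 times in Tubb4b. At least 5 matches were found in 0.213% of promoters. The GC box (GGGCGG) matched in 32.7% of promoters and in Tuba1a, Tuba1b, Tuba4a and Tubb4b. The CHR element (TTTGAA), known from genes of the cell cycle, matched in 16.0% of promoters and, among the members, in Tubb4b. The E-box (CACGTG) matched in 6.02% of promoters and in Tubb5, and the TATA box (TATAAA), found in 12.4%, matched in no member. The 250 bases before the Tubb4b start, chr2:25224703-25224952 on the minus strand of GRCm38.p6, are shown 5′ to 3′ because they hold the most matches, with the matches to these motifs in capitals.
Tubb4b: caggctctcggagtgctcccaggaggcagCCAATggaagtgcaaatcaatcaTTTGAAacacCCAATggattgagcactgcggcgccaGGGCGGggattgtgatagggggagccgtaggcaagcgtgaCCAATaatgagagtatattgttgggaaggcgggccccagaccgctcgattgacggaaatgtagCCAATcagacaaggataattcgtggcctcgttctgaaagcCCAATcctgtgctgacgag
The 5 CCAAT matches, the GC box and the CHR element were all on the strand of the gene. A match is a description of letters and says nothing of binding in these cells.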

How the data were processed

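RNA from sorted M45 tetramer+ CD8+ T cells was amplified by the authors with SMART-Seq v4 and made into Nextera XT libraries, sequenced paired-end on an Illumina NovaSeq. Reads were trimmed and mapped to GRCm38 in CLC Genomics Workbench with default settings, with an annotation that the sources do not name. The deposited table holds 1 length-scaled expression signal per gene and library, and the sources do not say whether it is RPKM or TPM. It also holds columns of the authors' comparison (a difference and a fold change, treated here as scores, p-value, FDR, log2 fold change and -log10 of the p-value), and these served only to count how many genes met which threshold. No column of per-sample values was left unused.

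The 6 libraries were grouped as JHT or WT by title. Differences were tested in limma 3.58.1 (R 4.3.3) after log2(value + 1) (trended moderated variance, a value of at least 1 in at least 3 libraries, no covariate, Benjamini-Hochberg over 1018 genes, threshold 0.05). Folds divide the JHT mean of the deposited signal by the WT mean, and log2 changes understate those of low genes. Sums and shares were compared by exact two-sided permutation in Python 3.11.15. Recovered reads are whole within a tolerance of 0.001 and follow from ratios between libraries; library depth is unknown. All p-values concern these mice only. Those of limma, and its SEs, rest on a variance shared among the genes of the table. Without the variance trend, the SE was 0.39 for each of the 6 members. The limma p-values therefore do not measure the spread of each gene by itself. Members and lists were chosen with earlier results of these data known; the genes named are the 6 members, listed genes and the 5 most alike. The procedure was tested on simulated data. For limma, these had independent noise in each gene, as many genes raised as lowered and no shift shared by a library. That test therefore does not cover the shared shift of this table. Alternatives were 2 other scalings, another pseudocount, no filter, no variance trend, a replicate block and leaving out each library. The coding starts of 3 members are not reported here.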

Additional observations from a re-analysis of the deposited data

How the results depend on the processing

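The limma count of members called higher in JHT was 6 with a pseudocount of 0.1, without a variance trend and without any 1 library (6 to 6), and 0 at an equal median and 0 after quantile normalization. The filter removed no gene, so the fit without it was the main fit again. In the main fit 96.6% of all genes in the table were called higher in JHT. At an equal median 2.06% were, and after quantile normalization 2.55%. Both scalings reversed Tuba1c (log2 change -0.17 and -0.056) and Tubb5 (-0.33 and -0.28), and the equal median reversed summed beta tubulin (-0.088). Leaving out 1 library moved the log2 change over 1.36 to 2.06 for Tuba1a, 1.32 to 1.83 for Tuba1b, 0.98 to 1.48 for Tuba1c, 1.51 to 2.53 for Tuba4a, 1.25 to 1.85 for Tubb4b and 0.94 to 1.23 for Tubb5, and that of all summed tubulin over 1.28 to 1.74. Among share differences, which are in percentage points, that of Tuba1b was -0.32 without JHT-3, that of Tubb4b was 0.21 without JHT-1 and 1.21 without WT-2, and that of Tubb5 was 0.035 without WT-1, each opposite in sign to the value over all libraries. Over all libraries left out in turn these ranged from -0.32 to 3.41 for Tuba1b, -1.75 to 1.21 for Tubb4b and -5.20 to 0.035 for Tubb5, and that of the alpha class from 0.37 to 6.95.

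With the replicate number as a block, 6 members were called, as without it. The SE of each was smaller with the block, for Tuba1a 0.30 against 0.38. Deviations from the group means correlated at 0.17, 0.03 and 0.11 between same-numbered JHT and WT libraries. Between differently numbered libraries the correlations ran from -0.13 to 0.03. The numbers were not taken to pair mice. Depth did not limit the members, whose lowest count was 621 recovered reads (Tuba4a in WT-1).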
